A study of Drosophila melanogaster with 4 samples.

Results

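The nuclear RNA of aging outer photoreceptors (PRs) without a knockdown was described from the 2 siControl libraries, of 4 libraries in the series. Every gene with at least 10 counts in both siControl libraries was taken, which gave 6305 of the 13929 genes in the counts table, or 45.3%, and these genes were ranked by their mean level. Levels are given as CPM, a gene's counts scaled to a common library size. Where genes are compared with each other, the CPM were divided by the length of the gene's merged exons in kilobases (CPM per exonic kb), since a longer transcript yields more reads.

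The study compared siTop3β with siControl PRs at Day 30, with 2 libraries in each group. The siControl flies were males that carried UAS-Dcr-2 on a w1118 X chromosome, a UAS-mCherry-RNAi construct, UAS-GFP-Msp300KASH and rh1-GAL4, in a ry506 background. The siTop3β flies shared all of these except that the RNAi construct (TRiP.JF01282) was directed against Top3β, so that both groups carried Dcr-2, the GFP tag and the driver. Flies were kept in a light:dark cycle and collected at ZT 6, and libraries were made from 10 ng of RNA. The labels give the source as retina and the molecule as total RNA, whereas the study's methods describe RNA from nuclei enriched with the GFP tag (NIE) and depleted of ribosomal RNA, from pooled males. Rh1-Gal4 acts in R1-R6, so R7, R8 and the support cells of the eye would enter these libraries only as nuclei carried along.

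An outer PR of the fly eye detects light with Rh1, the opsin encoded by ninaE, which sits in a stack of membrane folds called the rhabdomere. Excited Rh1 activates a G protein and the phospholipase C norpA, which leads to the opening of the TRP and TRPL cation channels. Arrestins, a lipid cycle and calcium extrusion end the response, and the cell signals to the brain by releasing histamine from its axon terminal. RNA in the nucleus includes transcripts still being made and spliced, so that its composition can differ from that of cytoplasmic mRNA.

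The siControl libraries held 4267208 counts in replicate 1 and 3615880 in replicate 2, of which the 6305 genes took 99.5% in each. A level of 10 counts equalled 2.34 CPM in replicate 1 and 2.77 CPM in replicate 2, and 3 counts equalled 0.703 and 0.830 CPM. At the edge of the rule, the 185 genes whose smaller count was 10 had mean levels of 2.55 to 5.84 CPM, and the 178 genes whose smaller count was 9 had 2.30 to 33.5 CPM. A further 2548 genes had no count in either library. Of the 6305 genes, all 6266 that were found in the annotation were protein coding, as were 13862 of the 13866 annotated genes of the whole table. None of the 23 Y-linked genes of the table met the rule, and the table held no mitochondrially encoded gene. Top3β, the gene targeted in the other group, had 57 and 71 counts in the libraries labelled siTop3β, against 70 and 57 counts in the siControl libraries, so its transcript did not tell the groups apart.

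Counts were concentrated in few genes. The most abundant gene, Ank2, held 6.39% of replicate 1 (exact 95% binomial interval 6.37 to 6.41) and 6.53% of replicate 2 (6.50 to 6.55). The 10 most abundant genes held 22.7% (22.7 to 22.7) and 22.9% (22.8 to 22.9), the top 100 held 51.6% and 52.4%, and the top 1000 held 86.3% and 87.0%. These intervals and the floors given here cover counting error within 1 library only, and not the difference between libraries. The sources used here do not say whether duplicate reads were collapsed to molecules. If duplicates were kept, the intervals are too narrow even for counting error. Averaged over both libraries, 88 genes accounted for 50% of all counts. At the other end, 2266 of the 6305 genes were under 10 CPM, the median was 17.1 CPM, and 149 genes were above 1000 CPM.

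**Figure D1:**
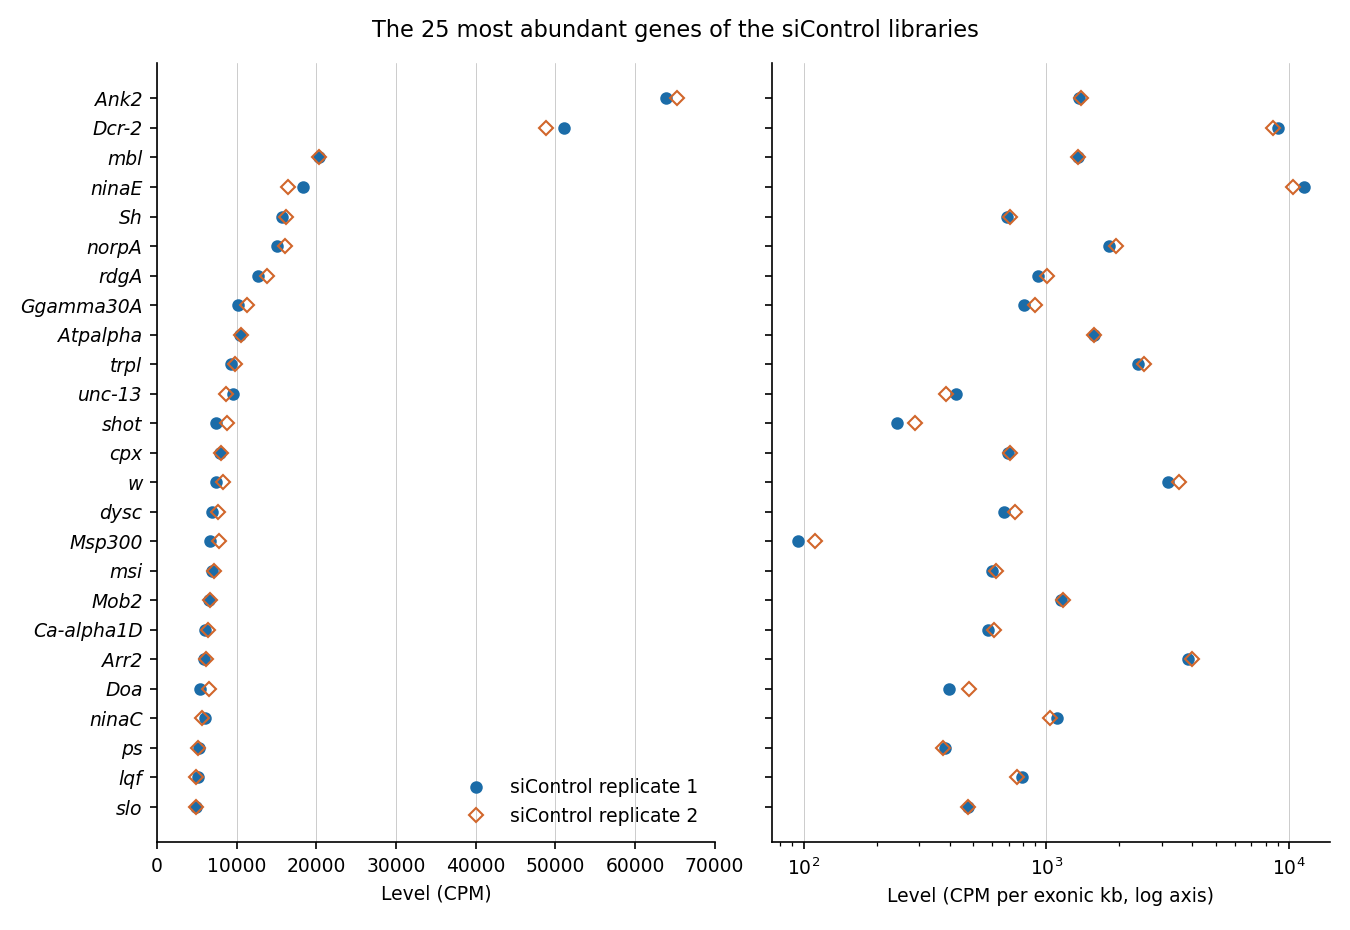
Levels of the 25 genes with the highest mean CPM in siControl replicate 1 (filled circles) and replicate 2 (open diamonds), as CPM on the left and as CPM per exonic kb on a log axis on the right. Ank2 and Dcr-2 stand apart from the rest as CPM, whereas per exonic kb ninaE and Dcr-2 were highest and Msp300 lowest.

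Ank2 encodes an ankyrin, a giant adaptor between membrane proteins and the spectrin skeleton of axons. It had 63889 CPM in replicate 1 and 65283 CPM in replicate 2. Its locus (chromosome 3L, 7655389 to 7718395, minus strand, dm6) has 46969 bases of merged exons, so that per exonic kb Ank2 reached 1360 and 1390 CPM and ranked 11. The gene muscleblind (mbl), a splicing regulator, had 20322 and 20336 CPM. Shaker (Sh), a voltage-gated potassium channel that shapes the PR response to light, had 15661 and 16220 CPM.

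Of the 25 most abundant genes, 4 were in the list drawn up for the activation arm of phototransduction. These were norpA, with 15108 CPM in replicate 1 and 16036 in replicate 2, the G protein subunit Ggamma30A with 10152 and 11299, the channel trpl with 9321 and 9803, and ninaC, the rhabdomere myosin, with 6014 and 5595. Of the genes that end the response, rdgA, a diacylglycerol kinase of the lipid cycle, had 12700 and 13816 CPM, and the major arrestin Arr2 had 5913 and 6138. Atpalpha, the catalytic subunit of the sodium pump that restores the ion gradients after a response, had 10461 and 10482 CPM.

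Other genes of the top 25 act at synapses, in ion channels, in the cytoskeleton or on RNA. The synaptic vesicle priming factor unc-13 had 9554 and 8699 CPM, and complexin (cpx), which clamps vesicle fusion, had 7946 and 8084. The spectraplakin shot, a linker of actin and microtubules, had 7378 and 8744 CPM. The channel genes Ca-alpha1D (6018 and 6360), which encodes an L-type calcium channel, and slo (4836 and 4831), which encodes a calcium-activated potassium channel, were joined by dysc, a regulator of slo, with 6912 and 7651 CPM. The RNA-binding genes msi and ps had 6845 and 7105, and 5235 and 5130 CPM. The kinase gene Doa (5437 and 6548 CPM), the kinase cofactor gene Mob2 (6498 and 6609 CPM) and the endocytosis gene lqf (5194 and 4935 CPM) completed the group, beside Dcr-2, w and Msp300.

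The order of the 25 genes was firm only in part. In 11 of the 24 neighbouring pairs both libraries put the higher gene above every value of the next one, which held for Ank2 over Dcr-2, Dcr-2 over mbl, mbl over ninaE and ninaE over Sh. Sh and norpA overlapped, as did Ggamma30A and Atpalpha, and the genes ranked from trpl to msi formed a run in which each overlapped the next. The libraries shared 9 of their own 10 most abundant genes, all 25 of their top 25 and 97 of their top 100.

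Dcr-2, w and Msp300 are carried in whole or in part by the transgenes, so reads from the transgene and from the resident gene cannot be told apart. Dcr-2, the dicer that makes small interfering RNAs, had 51090 CPM in replicate 1 and 48779 in replicate 2, and per exonic kb it ranked second among all genes with 8988 and 8582. The eye color gene w, the marker of the UAS insertions, had 7430 and 8301 CPM. Msp300, whose KASH domain anchors the GFP tag in the nuclear envelope, had 6596 and 7759 CPM over 69810 bases of merged exons, or 94.5 and 111 per exonic kb. The remaining marker genes were low. The gene ry, the marker of the driver insertion, had 64 and 75 counts, and v, the marker of the RNAi construct, had 8 and 5 counts and did not meet the rule. The gene y, a marker written only in the genotype with the Top3β construct, had 1 and 6 counts.

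Per exonic kb, the genes of the rhodopsin cascade led the ranking. The highest level was that of ninaE, with 11567 CPM per exonic kb in replicate 1 and 10390 in replicate 2, against a median of 7.55 over the 6266 genes with a length. Arr2 followed Dcr-2 with 3822 and 3968, then w with 3159 and 3529, trpl with 2394 and 2518, norpA with 1821 and 1933, Atpalpha with 1566 and 1569 and the arrestin Arr1 with 1559 and 1244. In all, 1 gene in 100 exceeded 335 CPM per exonic kb, and each of the genes named in this paragraph was several times above that level. Also among the 10 highest were CG43255, of unknown function, and the heat shock gene Hsp70Bb.

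The value of CG43255 was uncertain. Its single exon (chromosome X, 8923960 to 8924449) lies within rdgA on the same strand, and it had 881 CPM in replicate 1 and 984 in replicate 2. Its ratio between the libraries, 0.896, was close to that of rdgA, 0.919, and how the counting assigned reads of overlapping genes or introns is not given in the sources used here. Other abundant genes overlap a gene on the opposite strand, such as w, which lies within kirre, and Arr2, which lies within Pex7, and their reads can be told apart only if strand was used.

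The PR identity of the libraries was described with 5 markers. ninaE, norpA, rdgA, trpl and the rhabdomere adhesion protein chaoptin (chp) together held 5.99% of replicate 1 (exact 95% interval 5.96 to 6.01) and 6.05% of replicate 2 (6.02 to 6.07). All 5 ranked among the 100 most abundant genes, and chp was the lowest of them with 4357 CPM in replicate 1 and 4323 in replicate 2. The defining markers of the labelled cell type were thus present in both libraries. They were chosen with earlier results of these data known, so this describes the libraries and is not an independent check of identity.

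The opsins of the inner PRs, R7 and R8, were far below ninaE. Per exonic kb, Rh3, an ultraviolet opsin of R7, had 31.8 in replicate 1 and 33.6 in replicate 2, and Rh4, the other ultraviolet opsin of R7, had 17.5 and 19.3. The R8 opsins were lower still, Rh6 with 8.49 and 9.63 and Rh5 with 4.62 and 4.93. Rh2, the opsin of the ocelli, had 4.98 and 4.66, and Rh7, an opsin of clock neurons, had 1.52 and 0.689 with 26 and 10 counts. The order ninaE, Rh3, Rh4, Rh6 held in both libraries, whereas Rh2 and Rh5 overlapped.

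**Figure D2:**
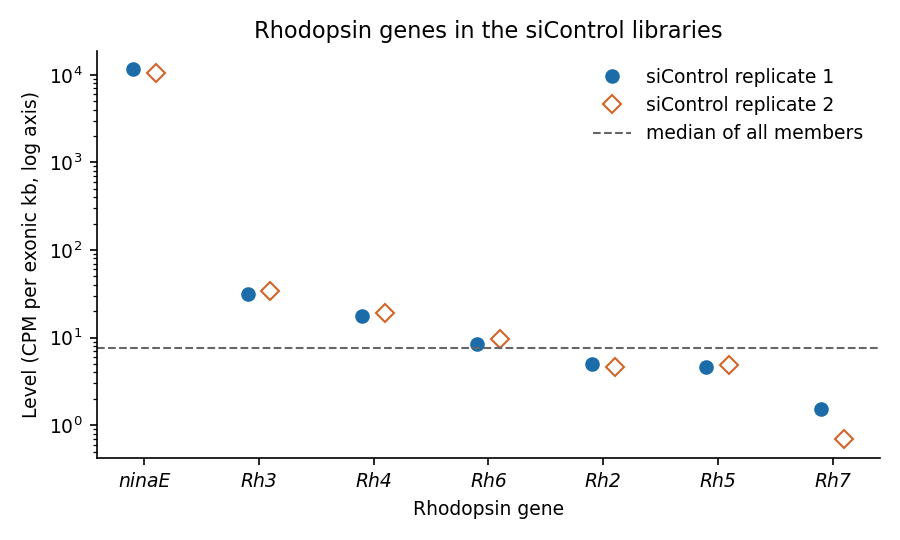
Level of the 7 rhodopsin genes (CPM per exonic kb, log axis) in siControl replicate 1 (filled circles) and replicate 2 (open diamonds), with the median of all 6266 genes that met the rule and have a length as a dashed line at 7.55. ninaE lies at 10390 or above in both libraries and every other rhodopsin lies below 34.

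The ninaE level was 185 times the summed level of Rh3, Rh4, Rh5 and Rh6 in replicate 1 and 154 times in replicate 2, a mean of 170 ± 21.9 (SD, n = 2). As counts, the R7 and R8 opsins made up 372 of the 78752 counts of ninaE, Rh3, Rh4, Rh5 and Rh6 in replicate 1, or 0.472% (exact 95% interval 0.426 to 0.523), and 340 of 59997 in replicate 2, or 0.567% (0.508 to 0.630). Fewer R7 and R8 nuclei and less opsin RNA per nucleus cannot be told apart in bulk libraries. The transcription factor sens, which defines R8, had 5 and 1 counts, and pros, which is present in R7 and cone cells, had 1255 and 922 counts, or 294 and 255 CPM. The level of pros per exonic kb was 11.8 in replicate 1 and 10.2 in replicate 2, below Rh3 and Rh4.

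All 9 genes of the activation list that were found in the table met the rule, with a median of 855 CPM per exonic kb. The other TRP channel gene, trp, had 3844 CPM in replicate 1 and 3706 in replicate 2, so that trpl was 2.58 and 2.82 times trp per exonic kb. The eye protein kinase C inaC had 1774 and 1750 CPM, and the scaffold inaD, which ties the channel, norpA and inaC into 1 complex, had 1184 and 1085. The Gα subunit gene Galphaq (682 and 686 CPM) and the Gβ subunit gene Gbeta76C (588 and 553 CPM) were the least abundant of the list. Per exonic kb, Gbeta76C stood at 401 and 377 and Galphaq at 98.7 and 99.2, below Ggamma30A with 809 and 901. The 3 subunit genes were thus at unequal levels per exonic kb in both libraries. By CPM Galphaq was above Gbeta76C, so the order of these 2 genes depended on the length scaling.

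The genes that terminate the response and recycle its lipids were also all detected, 11 of 11, with a median of 345 CPM per exonic kb. Arr2 exceeded Arr1 by 2.45 times in replicate 1 and 3.19 times in replicate 2. The rhodopsin phosphatase rdgC (1974 and 1767 CPM), the phospholipase C regulator stops (1792 and 2003 CPM) and the lipid transfer protein rdgB (1579 and 1632 CPM) followed. At the low end of the list were laza, a lipid phosphatase, with 67 and 41 counts, and phospholipase D (Pld), with 34 and 48 counts.

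Genes listed for making Rh1 were less abundant than genes listed for using it. The 10 genes placed in the rhodopsin maturation list were all above 10 counts with a median of 43.3 CPM per exonic kb. The highest by CPM were rtp (530 and 449), Cnx99A, which encodes the chaperone calnexin (331 and 373), and ninaD, which encodes a carotenoid receptor (316 and 230). The Rh1 chaperone gene ninaA had 221 and 212 counts, or 51.8 and 58.6 CPM. Rab1 (99.1 and 95.4 CPM) and ninaB, a vitamin A enzyme (68.7 and 53.1 CPM), lay between them.

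Among 10 rhabdomere and apical membrane genes the median was 98.0 CPM per exonic kb. Beside chp, the polarity gene sdt had 1844 and 1687 CPM, prominin (prom) had 1151 and 1257, crumbs (crb) had 937 and 991, and eys, whose product fills the space between rhabdomeres, had 868 and 882. The lowest of the list was Zasp66, with 22 and 19 counts.

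Genes for histamine signalling were present on the PR side of the synapse. The vesicular transporter gene lovit had 1598 CPM in replicate 1 and 1711 in replicate 2. The histamine-synthesizing enzyme Hdc had 185 and 153 CPM, the transporter CarT had 353 and 305, and tan (t), which regenerates histamine from its conjugate, had 446 and 379. The receptor gene HisCl1, which was not assigned to either side of the synapse, had 53.0 and 63.1 CPM. Genes of the partner cells were low. The receptor ort, which is carried by the target neurons, had 7 and 2 counts, the glial enzyme ebony (e) had 24 and 32 counts, and the β-alanine transporter gene Balat had 7 and 6 counts.

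All 15 genes of the presynaptic release machinery met the rule, with a median of 229 CPM per exonic kb, and together they held 4.17% and 4.15% of the libraries. Of these, 9 ranked among the 100 most abundant genes. After unc-13 and cpx came synaptotagmin (Syt1, 4822 and 4740 CPM), the dense-core vesicle factor Cadps (3353 and 3403) and the active zone scaffold bruchpilot (brp, 2792 and 3232). The lowest member was comt, the N-ethylmaleimide-sensitive fusion factor, with 64.0 and 53.4 CPM. Pan-neuronal genes included nSyb, a vesicle fusion protein, with 1278 and 1319 CPM and elav with 751 and 703 CPM, whereas para, the sodium channel of spiking neurons, had 194 and 138 CPM over many exons, or 11.9 and 8.46 CPM per exonic kb. The RNA-binding gene fne had 54.1 and 43.1 CPM.

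Of 23 potassium channel genes and their partners, a list drawn up after levels had been seen, 19 met the rule and 11 exceeded 49.2 CPM per exonic kb, the 90th percentile. They held 4.27% and 4.41% of the libraries. After Sh, dysc and slo came quiver (qvr, 3575 and 3019 CPM), a modulator of Sh, the channel gene eag (3028 and 3211) and the channel gene SK (2209 and 2231). The Sh β subunit Hyperkinetic (Hk) had 1706 and 1917 CPM. By contrast the inward rectifiers Irk1 and Irk3 had at most 4 and 2 counts in any library. All 13 calcium channel and calcium handling genes of a list drawn up in the same way met the rule, led by Ca-alpha1D, calmodulin (Cam, 4521 and 4611 CPM) and the sodium/calcium exchanger Calx (3591 and 3728 CPM).

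A list of 22 RNA-binding and splicing genes, also drawn up after levels had been seen, was detected whole and held 4.79% and 4.83% of the libraries, of which mbl accounted for the largest part. Next to msi and ps, spen had 3141 and 3630 CPM and mub had 2992 and 2910. The editing enzyme Adar, which recodes neuronal transcripts, had 1663 and 1622 CPM. Of 19 scaffold and cytoskeleton genes in a further such list, which held 9.91% and 10.5%, 16 had a higher CPM in replicate 2 than in replicate 1, against 42.5% of all genes that met the rule. The shifts were small, as for futsch, the microtubule-binding protein of synapses, with 2734 CPM in replicate 1 and 3302 in replicate 2. Actin 5C (Act5C) had 90.7 and 94.3 CPM.

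**Figure D3:**
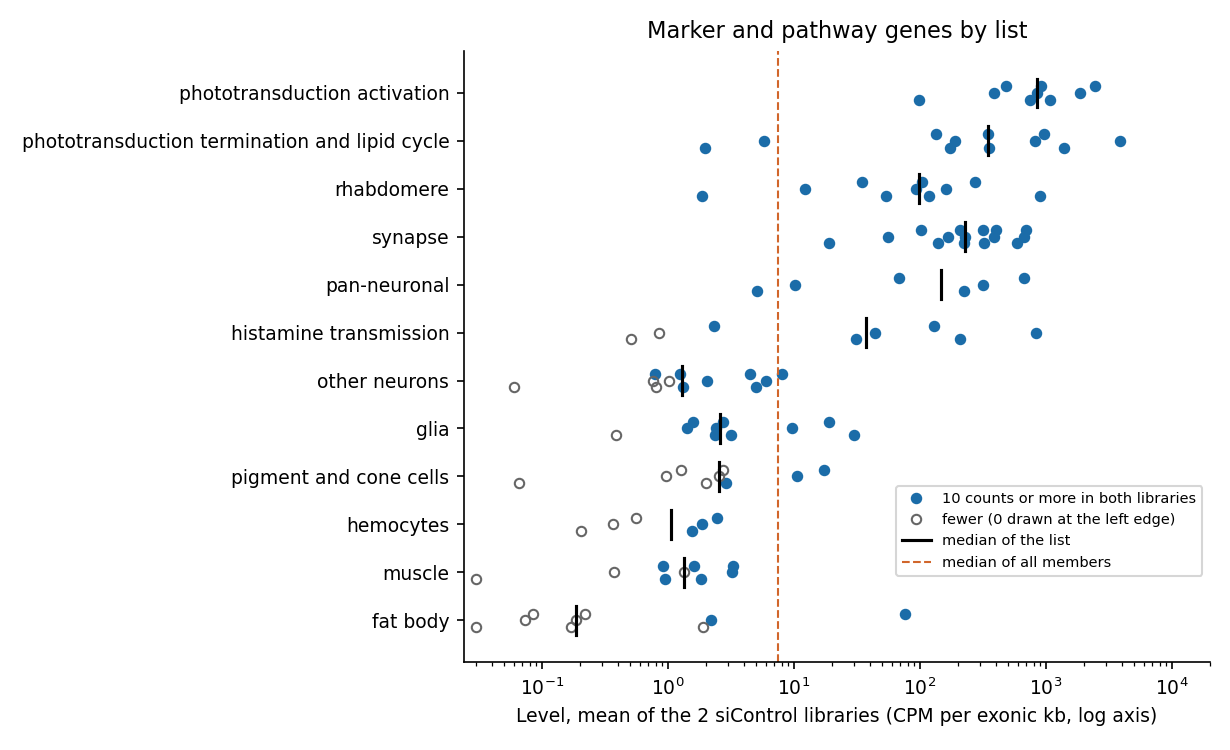
Mean level over the 2 siControl libraries of the genes of 12 lists (CPM per exonic kb, log axis). Filled points met the rule of 10 counts in both libraries, open points did not, the black bar is the median of the list, and the dashed line at 7.55 is the median over all genes that met the rule. The phototransduction, rhabdomere, synapse and pan-neuronal medians lie between 98.0 and 855, and those of other neurons, glia, pigment and cone cells, hemocytes, muscle and fat body lie at or below 2.58.

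Markers of other cell types were far lower. The 10 glial genes had a median of 2.58 CPM per exonic kb and summed to 236 CPM in replicate 1 and 220 in replicate 2. Repo, the transcription factor that defines glia, had 25 and 13 counts, and wrapper, which marks cortex glia, had 3 and 3 counts. The highest glial genes were nrv2, a sodium pump β subunit (119 and 95.4 CPM), and the glutamine synthetase gene Gs2 (41.0 and 44.2 CPM), followed by Eaat1 (27.9 and 33.2), loco (10.3 and 11.6) and Indy (8.91 and 10.5). The neuronal pump subunit nrv3, with 4790 and 4275 CPM, exceeded nrv2 by 30.1 and 33.5 times per exonic kb. Both belong to a list of 8 ion pump and ATP synthase genes, all of which met the rule and of which Atpalpha, nrv3 and Calx were highest and the calcium pump SERCA followed with 144 and 156 CPM.

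Genes that define other transmitter systems were low as well. The 12 genes of the list summed to 184 CPM in replicate 1 and 164 in replicate 2 and had a median of 1.29 CPM per exonic kb. The vesicular glutamate transporter gene VGlut had 51.8 and 40.9 CPM, VAChT, for acetylcholine, had 46.6 and 38.2, and Vmat, for monoamines, had 38.2 and 43.4. The synthetic enzyme genes Gad1 (15.0 and 18.0 CPM) and ChAT (9.37 and 6.91 CPM) were lower. Under 10 counts in at least 1 library were VGAT (13 and 9), DAT (9 and 9), the tryptophan hydroxylase Trhn (8 and 6) and Tdc2 (0 and 1).

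The pigment and cone cell list summed to 184 and 192 CPM. Its lens protein gene Crys had 9 and 25 counts, retinin had 8 and 8, and Cpr72Ec, a cuticle protein of the lens, had 51 and 67. The pigment genes cn, bw, se and st had 1 and 0, 5 and 15, 5 and 12, and 8 and 13 counts. The highest of the list were ca, which encodes claret, with 533 and 435 counts, and the transcription factor cut (ct) with 164 and 119. Hemocyte genes summed to 46.2 and 49.0 CPM, with Hml at 82 and 88 counts, srp at 65 and 48 and Pxn at 39 and 34, NimC1 at 8 and 2 and eater at 1 and 4.

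In the fat body list, apolpp, the precursor of lipophorin, had 893 CPM in replicate 1 and 894 in replicate 2 and held nearly all of the list's sum of 902 and 904 CPM. Other genes of the list were low, with Yp1 at 0 and 2 counts, Yp2 at 0 and 1, Yp3 at 21 and 8, Fbp1 at 1 and 1 and Lsp2 at 15 and 27. The flies were males, so the counts of the yolk genes Yp1, Yp2 and Yp3 cannot show how much fat body was present. The median of the list was 0.187 CPM per exonic kb. apolpp lies on chromosome 4 (1060969 to 1077273).

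Chemosensory and cuticle genes were rarely detected. Only 3 of 59 olfactory receptor genes, 3 of 60 gustatory receptor genes, 5 of 60 ionotropic receptor genes and 3 of 70 cuticular protein genes met the rule, against 45.3% of all genes. The exception by level was Ir41a, with 133 and 140 CPM. These lists, like those of the following paragraph, were formed by gene symbol after levels had been seen.

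Housekeeping genes for translation and respiration took a small share of the counts. Of 88 cytoplasmic ribosomal protein genes 78 met the rule, but together they held 0.162% and 0.177% of the counts, and the highest, RpL3, had 86.0 and 85.7 CPM. Their median was 19.6 CPM per exonic kb, above the 7.55 of all genes that met the rule. The nuclear-encoded subunits of respiratory complex I had a median of 8.40 CPM per exonic kb over 40 genes and those of cytochrome c oxidase 9.94 over 16. The mitochondrial ribosomal proteins were lower, with a median of 1.77 and 20 of 72 genes past the rule. Among 48 proteasome genes, Prosalpha3T, described as a testis form of a core subunit, had 279 and 319 CPM, while the next highest, Rpn2, had 32.8 and 25.4.

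Transcription factors of the eye were detected at Day 30. Of 16 factors 12 met the rule, led by onecut (1180 and 1015 CPM), orthodenticle (oc, 800 and 795), which sets opsin choice, and glass (gl, 715 and 632), which specifies PRs. The Pax6 gene toy had 290 and 265 CPM and dve, a repressor of inner PR opsins in outer PRs, had 262 and 290. Pph13, which promotes rhabdomere genes, had 99.1 and 102 CPM. The early eye factors so (148 and 135 CPM) and ey (69.4 and 59.5 CPM) were also above the median of all genes that met the rule, and pros was given above. The remaining factors that met the rule were eya (73 and 78 counts), svp (20 and 32) and dac (22 and 19). Their mean levels were 5.24, 1.21 and 1.04 CPM per exonic kb, below the median of 7.55. The 4 factors that missed the rule were ss, which selects the R7 subtype, with 9 and 8 counts, lz with 6 and 5, sens, and ro with 0 and 2.

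All 10 circadian genes met the rule at ZT 6, the only time sampled. The kinase gene sgg had 2225 and 2407 CPM, Pdp1 had 1204 and 1035, Clk had 654 and 589, and the kinase gene dco (also called doubletime) had 416 and 390. The clock genes tim and per were lower at this time, with 188 and 203 CPM for tim and 37.0 and 58.4 for per. The 7 dosage compensation genes found in the table, among them msl-2, which is translated in males only, with 33.5 and 27.1 CPM, met the rule too. Sxl, whose full-length protein is made in females, had 1065 and 1059 CPM. Others of the list were mle (151 and 143 CPM), Clamp (79.7 and 65.3), msl-1 (55.8 and 41.8) and msl-3 (12.7 and 9.96). Noncoding nuclear RNAs such as roX1 and roX2 were not analysed here.

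The topoisomerase genes were of low to middling level. Top1 had 86.7 CPM in replicate 1 and 89.1 in replicate 2, Tdrd3, which encodes the partner of Top3β, had 21.6 and 19.9, Top2 had 22.3 and 14.9, Top3β had 16.4 and 15.8, and Top3alpha had 4.92 and 4.15. Top3β was thus near the median of 17.1 CPM, whereas its mean of 4.88 CPM per exonic kb was below the median of 7.55.

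Heat shock genes were led by Hsp70Bb, which had 4502 CPM in replicate 1 and 3317 in replicate 2. The 6 Hsp70 copies are nearly identical, so that their individual counts are uncertain, and their sum was 5477 and 3821 CPM, 1.43 times as high in replicate 1. The cochaperone gene stv had 831 and 848 CPM, Hsp83 had 717 and 578, Hsp70Ab had 769 and 407, and DnaJ-1 had 645 and 447. The small heat shock genes were low, Hsp26 with 49.2 and 36.0 CPM and Hsp22 with no count. Of the 15 genes on the list that met the rule 10 were higher in replicate 1, as were 57.5% of all genes that met the rule, and 5 of the 10 were Hsp70 copies.

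The libraries resembled each other closely. Across the 6305 genes, log2(CPM + 0.5) had a Pearson r of 0.985 and the CPM a Spearman rho of 0.969, given without a p because genes of the same libraries are not independent. Of these genes 5399, or 85.6%, lay within 1.5-fold of each other, and 189, or 3.00%, lay more than 2-fold apart. Among these 88 (1.40%) were higher in replicate 1 and 101 (1.60%) were higher in replicate 2. With 1 library on each side these folds have no replicate check. Most were genes of low count, 151 of the 189 being under 10 CPM, and of the 2388 genes with at least 100 counts in both libraries only 6 were past 2-fold.

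Whether the libraries could be a single library counted again was checked against counting error. The chi-square of their counts divided by its degrees of freedom was 4.58, where repeats of a single library would give about 1. For genes with a mean of 10 to 30 counts the median absolute log2 ratio was 0.35, against 0.32 from counting error alone. For genes with a mean of at least 1000 counts it was 0.09, against 0.03. The libraries were counted as 2 samples. The labels do not say whether they came from separate cohorts, and the study's supplementary methods describe independent replicates of pooled, age-matched males for its sequencing experiments in general.

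**Figure D4:**
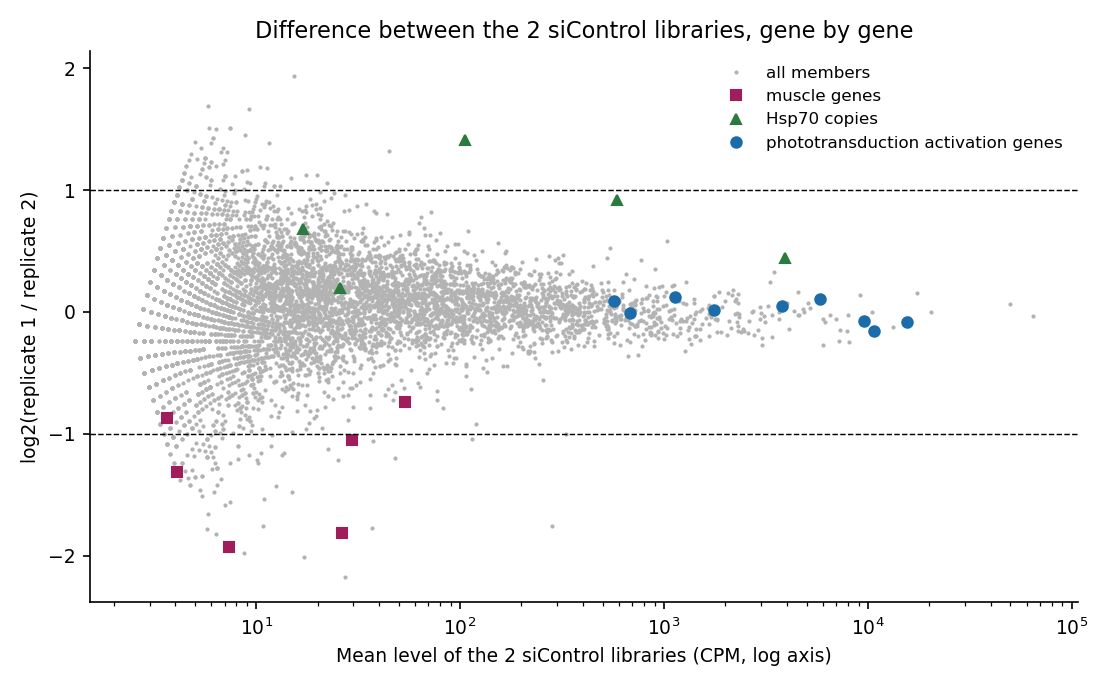
log2 ratio of siControl replicate 1 to replicate 2 for the 6305 genes against their mean CPM (log axis), with dashed lines at 2-fold. Muscle genes (squares) all lie below 0, the 5 Hsp70 copies that met the rule (triangles) all lie above 0, and the 9 activation genes (circles) lie close to 0.

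Muscle genes differed most as a list. All 6 that met the rule were higher in replicate 2, against 42.5% of all genes, and 4 of them were among the 1.60% of genes past 2-fold in that direction. Myosin heavy chain (Mhc) had 82 counts in replicate 1 and 144 in replicate 2, the titin relative bt had 50 and 149, the myosin light chain Mlc2 had 13 and 42, and the troponin T gene up had 10 and 21. The giant filament gene sls had 172 and 243 counts and wupA, for troponin I, had 11 and 17. The list summed to 79.7 CPM in replicate 1 and 175 in replicate 2, with Act88F at 0 in both. The pigment and cone cell list had 184 and 192 CPM, and the 5 PR markers held 5.99% and 6.05% of counts. Whether different amounts of muscle tissue account for the shift was not tested.

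Among the 10 genes farthest apart with at least 100 counts in both libraries, 6 were higher in replicate 2. CG3626 had 549 counts in replicate 1 and 1568 in replicate 2. It begins 1008 bases after the end of norpA on the same strand of chromosome X (4366417 to 4371136), and norpA itself had 64468 and 57984 counts. The large extracellular matrix gene dpy had 936 and 1591 counts and the atypical cadherin gene ft had 103 and 182. CG5079 (124 and 241), which lies within Npl4 on the opposite strand, CG33080 (320 and 557) and CG17111 (353 and 566) moved the same way. Higher in replicate 1 were Hsp70Ba (657 and 209 counts), Hsp70Ab (3280 and 1472), CG32228 (392 and 188) and chico, the insulin receptor substrate (211 and 102). Cyp4g1, a cytochrome P450 of oenocytes, was more unequal still, with 275 and 9 counts, and so failed the rule.

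The abundant genes were long. The 100 most abundant by CPM had a median span of 31.5 kb and 8.90 kb of merged exons, against 3.87 kb and 2.68 kb for all genes that met the rule. Of these 100 genes 25 spanned more than 50 kb, against 4.44% of all. Across 6266 genes, span had a Spearman rho of 0.524 with CPM and of 0.146 with CPM per exonic kb, given as a description. Per exonic kb the median was 5.11 in the third decile of span, 16.4 in the ninth and 9.37 in the longest, so the relation was not monotonic. Whether reads within introns were counted is not given in the sources used here.

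**Figure D5:**
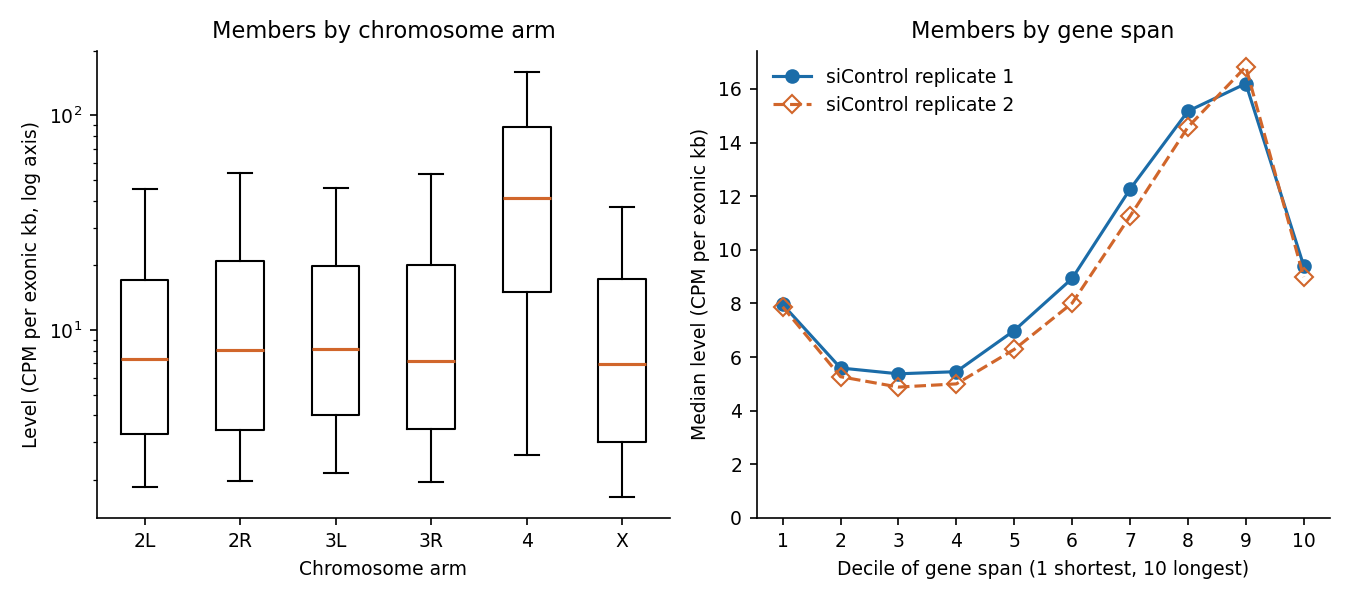
Left, levels of the genes that met the rule (CPM per exonic kb, log axis) by chromosome arm, with boxes from the 25th to the 75th percentile, whiskers from the 10th to the 90th and the median in orange. Right, median level by decile of gene span in siControl replicate 1 (filled circles) and replicate 2 (open diamonds). Chromosome 4 has a median of 41.0 against 6.93 to 8.12 on the other arms, and the median by span is highest in decile 9.

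Levels were similar on the large chromosome arms and higher on chromosome 4. The 1119 X-linked genes that met the rule had a median of 6.93 CPM per exonic kb, against 7.72 for the 5147 autosomal genes, a ratio of 0.898 (0.863 in replicate 1 and 0.947 in replicate 2). Over all genes of the table, with no minimum count, the ratio was 1.36, so its direction depended on the rule. The males carried 1 X. On the small chromosome 4, 75 of 79 genes met the rule, or 94.9%, against 43.7% on the other autosomes. Their median was 41.0 CPM per exonic kb, 5.42 times that of the other autosomes (5.75 in replicate 1 and 5.45 in replicate 2), and 61 of the 75 were above the median of all genes that met the rule. Chromosome 4 holds unc-13, Cadps, onecut and apolpp, described above, and also pan, the transcription factor of Wnt signalling (2417 and 2184 CPM), the calcium pump PMCA (2263 and 2060 CPM), and the calcium and calmodulin kinases CaMKI (2044 and 1918) and CaMKII (1454 and 1350). The ratio was 33.0 over all genes of the table and 10.6 as CPM with no length scaling. In all, 6 of its genes were among the 100 most abundant.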

How the data were processed

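Nuclear RNA of PRs from male flies at Day 30 was sequenced in 2 siControl and 2 siTop3β libraries, and only the siControl libraries are described. According to the study's methods, the authors trimmed paired-end reads with Trimmomatic and aligned them to dm6 with STAR. The authors deposited raw read counts per gene, without normalization. The counting tool, its annotation, and its treatment of introns, strand and repeated alignments are not given in the sources used here. The table holds no columns of fold changes or p-values.

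From the counts, CPM and CPM per exonic kb were computed in Python 3.11 with pandas 2.3.3 and scipy 1.17.1, with gene models of Ensembl release 115 in dm6 coordinates, which matched 13866 of 13929 identifiers. A minimum of 10 counts in both libraries was applied. Shares have exact Clopper-Pearson 95% intervals, and correlations used a pseudocount of 0.5 CPM. TMM scaling of edgeR 4.0.16 and size factors of DESeq2 1.42.0, in R 4.3.3, were alternatives, beside the minimum count, the length scaling and each single library. Medians and totals were otherwise taken without a test, since 1 group is described. The agreement measures were tested on simulated data.

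Genes were named by a rule: the 25 highest by CPM, the 10 highest per exonic kb, all PR, rhodopsin and transgene genes, the 5 highest genes and the low defining genes of each other list not drawn up after levels were seen, and the 10 genes farthest apart between the libraries. Others, such as Cyp4g1, Top3β, trp, the chromosome 4 genes and the lowest members of lists, were chosen after their values were seen. The genes described and all lists were chosen with earlier results of these data known. Of the listed names, inaF, Ca-beta and the noncoding RNAs were not analysed here.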

Additional observations from a re-analysis of the deposited data

How the results depend on the processing

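Taking each siControl library alone, the share of the 10 most abundant genes ran from 22.7% to 22.9%, the share of the PR list from 5.99% to 6.05%, the X to autosome ratio from 0.863 to 0.947, the chromosome 4 ratio from 5.45 to 5.75 and the ninaE ratio from 154 to 185. A minimum of 1 count in place of 10 gave 9635 genes. Without the genes carried by the transgenes, an alternative chosen after seeing the data, the 10 most abundant genes held 20.0% and the PR list 6.43%. The correlation was 0.974 over all genes with a count, and 0.969 by rank (chosen after seeing the data). The percentage of genes past 2-fold was 0.251 with a minimum of 100 counts. With CPM and no length scaling the X to autosome ratio was 0.994, the chromosome 4 ratio 10.6 and the ninaE ratio 193. With no filter on low counts the X to autosome ratio was 1.36, above 1, and the chromosome 4 ratio 33.0, and per kb of gene span the chromosome 4 ratio was 3.69. The chromosome 4 alternatives and the unfiltered X ratio were chosen after seeing the data. The cause of these shifts was not tested. With the single libraries included, 16 alternative values stayed within the spread between libraries or within 1.5 times, and 13 did not. The 16 include TMM and DESeq2 scaling. They also include single-library values of the shares and the ninaE ratio. Those could not fall outside a spread taken from the same libraries. Leaving out mitochondrially encoded genes changed nothing, because the table holds none. No paired analysis was possible because the results come from no test between groups. At this depth 3 counts equal 0.703 and 0.830 CPM, and values of a few counts are imprecise.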
